A study of Mus musculus with 6 samples.

Results

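Nuclear receptors are transcription factors that share a DNA-binding domain and, in most cases, a pocket for a small lipid-soluble ligand such as a steroid, a retinoid, thyroid hormone, an oxysterol or a fatty acid. The receptors described here were 40 named mouse genes of this family other than the NR1D and ROR genes. They were found by their Entrez Gene IDs among the 27179 rows of the count data, and all 40 had a row. Of these genes, 37 had at least 1 count in at least 1 library, and 20 reached a mean of 100 normalized counts over the 6 libraries and were tested. The other 20 were below this mean and are described by their levels.

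Many of these receptors work as heterodimers with RXR (Thra, the RAR genes, the PPAR genes, the LXR genes Nr1h2 and Nr1h3, and Vdr), others as homodimers (the steroid receptors) or as monomers. Without ligand or with antagonists, many bind corepressor complexes built on Ncor1 and Hdac3, and ligand binding exchanges these for coactivators. NR1D1 and NR1D2 belong to the same family and repress through the same corepressors, and CRY1 and CRY2 have been described as corepressors of several nuclear receptors, among them the glucocorticoid receptor. In fibroblasts the family includes the receptors for glucocorticoids, retinoic acid, vitamin D and fatty acids.

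RNA was sequenced from 3 immortalized mouse embryonic fibroblast (MEF) lines of strain C57BL/6, all of which lack Per1 and Per2, with 2 libraries per line. The Cry/Per_KO line also lacks Cry1 and Cry2, the Per/Nr1d_KO line also lacks Nr1d1 and Nr1d2, and the Cry/Per/Nr1d_KO line lacks all 6 genes. The Cry/Per/Nr1d_KO line was 1 clone, made by CRISPR mutation of Nr1d1 and Nr1d2 in Cry/Per_KO cells, whereas Per/Nr1d_KO is a separately established line. No line with intact clock genes was sequenced, the cells were growing in serum without treatment, and the 2 libraries of a line came from separate RNA preparations, so p-values measure the spread between preparations of 1 line and not between lines of 1 genotype. A line and its genotype cannot be told apart in this design.

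The genotype given for each library was used for its group. For 2 of the 3 pairs of libraries, this genotype conflicts with the name of the deposited counts: the pair labelled Cry/Per_KO carries the name of Cry/Per/Nr1d_KO, and the reverse. Both pairs are therefore called by their labels below. If the labels were exchanged, every sign in the comparison of these pairs would reverse, and the 2 comparisons of Per/Nr1d_KO cells would trade their reference. The order and the size of the values given per library would stay as printed.

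The libraries held between 53764390 and 85927236 counts, so that counting error is small for the abundant receptors. The 6 mutated genes were still transcribed, at between 1004 and 9337 normalized counts in every library, so the presence of their RNA does not tell the lines apart. Arntl (Bmal1), which NR1D proteins are known to repress, had 1192 and 1171 normalized counts in the pair labelled Cry/Per/Nr1d_KO, 2176 and 2208 in the pair labelled Cry/Per_KO, and 2493 and 2455 in Per/Nr1d_KO cells. By the labels, the pair with intact Nr1d genes would have the higher Arntl level and resemble Per/Nr1d_KO cells, which goes against this known repression. Cry1, which NR1D proteins are also known to repress, had 1698 and 1724, 5323 and 5478, and 1535 and 1592 in the same order, so it too was higher in the pair labelled with intact Nr1d genes. It is itself mutated in both of the labelled pairs and was low in Per/Nr1d_KO cells. The RNA of the mutated genes Per1, Per2, Nr1d1 and Nr1d2 was also higher in the pair labelled Cry/Per_KO, with means of 5719, 6736, 9293 and 8135 normalized counts. The means in the pair labelled Cry/Per/Nr1d_KO were 3064, 4932, 3152 and 5193. Cry2, the remaining mutated gene, differed less, with means of 7803 and 6692 in the same order (log2 fold change 0.22). The study reports Arntl, Cry1, Per1, Per2, Nr1d1 and Nr1d2 RNA as lower in Cry/Per_KO than in Cry/Per/Nr1d_KO cells. By the labels the order here is the reverse. The study called genes with DESeq2 at an adjusted p under 1e-22 and a limit on the fold. By these criteria 2533 genes differed between Per/Nr1d_KO cells and the pair labelled Cry/Per_KO, and 1766 between them and the pair labelled Cry/Per/Nr1d_KO. The number that the study reports for Per/Nr1d_KO against Cry/Per/Nr1d_KO cells is near the first of these and well above the second. This number, the reported directions, the Arntl and Cry1 levels and the names of the counts all go against the labels of the 2 pairs. An exchange of these labels is therefore probable. Directions that rest on those labels are to be read with this in mind. Of 10 fibroblast markers, 7 had a mean over 100 normalized counts, namely Vim, Fn1, Col1a1, Col1a2, Col3a1, Pdgfra and Pdgfrb. These markers differed between lines as well. Col3a1 had 836 and 801 normalized counts in the pair labelled Cry/Per/Nr1d_KO, 289 and 296 in the pair labelled Cry/Per_KO, and 42810 and 43797 in Per/Nr1d_KO cells, where Pdgfra and Pdgfrb were lower than in both other groups (log2 fold changes from -1.61 to -1.24). The neural marker Map2 was also lower there, with 3548 and 4030, 5138 and 4992, and 355 and 333 normalized counts, whereas the neural marker Sox2 was higher, with 55.1 and 47.8, 39.0 and 30.4, and 161 and 113. The part of such differences between lines in the results for Per/Nr1d_KO cells was not tested. Thy1 had at most 6.21 and Lum at most 9.77 normalized counts in any library, which is low for fibroblasts. Where no read was counted, as many as 3 counts remain possible, which equals between 2.37 and 3.80 normalized counts per library, and this limit covers counting error only.

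Levels of different receptors were compared per kilobase of annotated exon. On this scale Rarg, a retinoic acid receptor, was the highest of the 20 tested receptors in each line, at 2860 normalized counts per kilobase in the pair labelled Cry/Per/Nr1d_KO, 2319 in the pair labelled Cry/Per_KO and 2864 in Per/Nr1d_KO cells. The glucocorticoid receptor gene Nr3c1 came next in the first 2 groups, at 1248 and 1752 per kilobase. In Per/Nr1d_KO cells the orphan receptor Nr2f6 came second at 1251 per kilobase and Nr3c1 was sixth at 958. The RXR genes Rxra and Rxrb lay between 989 and 1216 per kilobase in every group, whereas the third gene, Rxrg, had at most 0.89 normalized counts in a library.

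**Figure D1:**
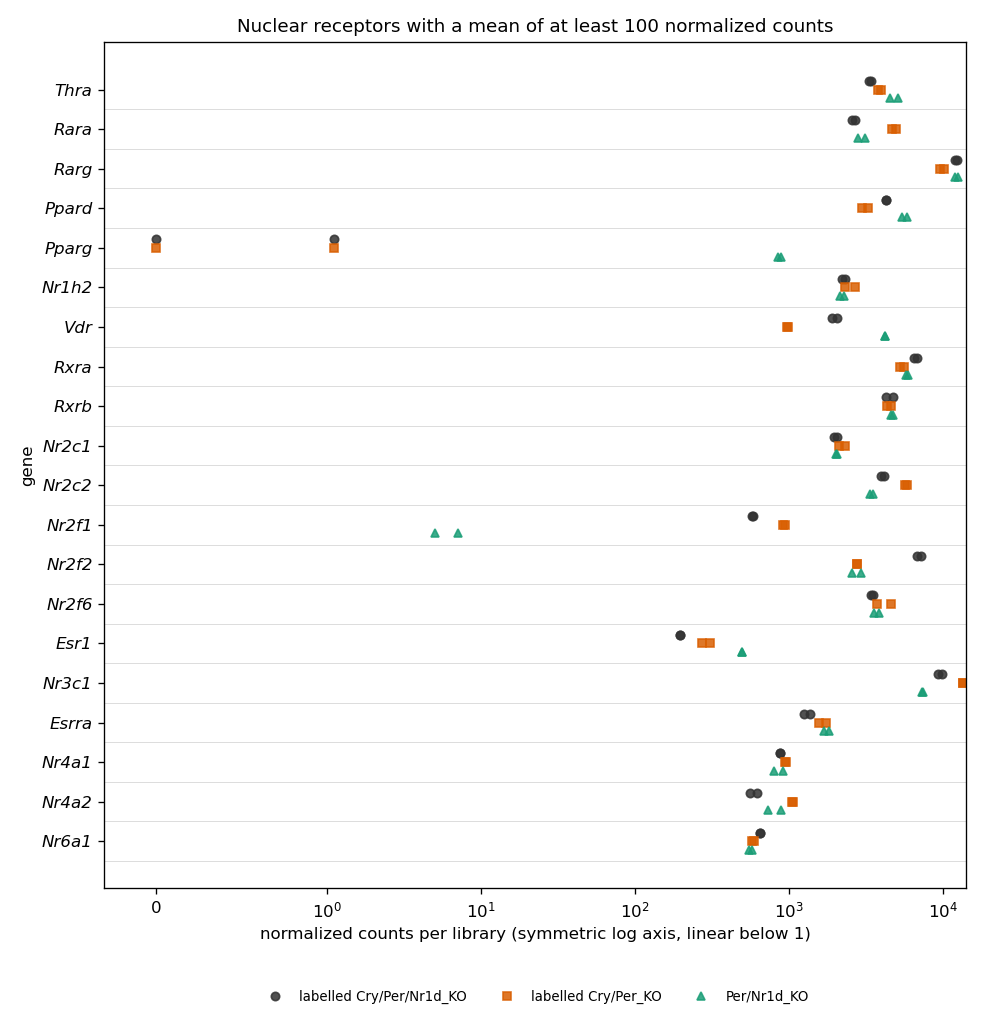
Normalized counts (x axis, symmetric log scale that is linear below 1) of the 20 tested nuclear receptors (y axis, ordered by role), with 1 point per library and 2 libraries per line. The points of most receptors lie close together, whereas Pparg and Nr2f1 span the plot, with Pparg at 851 and 887 in Per/Nr1d_KO cells and at most 1.11 elsewhere.

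The upstream sequences of receptors called in at least 2 of the comparisons below, and of called receptors with a motif match there, give the promoter context of these values. For Pparg and Nr2f1, 1 further start site each without a match is not shown. They are RefSeq sequences of GRCm38.p6, the 100 bases before an annotated start site, read 5′ to 3′ on the strand of the gene. The capitals mark CACGTG, the E-box bound by CLOCK-BMAL1, or AGGTCA, the half-site bound by many nuclear receptors. Both strands were searched, and the 2 motifs do not overlap in these sequences.
Rara (chr11:98937618-98937717, plus strand): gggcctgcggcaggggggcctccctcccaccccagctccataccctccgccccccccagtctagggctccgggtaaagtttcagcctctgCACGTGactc
Pparg (chr6:115361044-115361143, plus strand): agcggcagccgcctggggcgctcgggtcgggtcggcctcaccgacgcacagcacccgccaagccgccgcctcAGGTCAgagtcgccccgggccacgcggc
Pparg (chr6:115362249-115362348, plus strand): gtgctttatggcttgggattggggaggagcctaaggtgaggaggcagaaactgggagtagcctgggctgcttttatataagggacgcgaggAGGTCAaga
Vdr (chr15:97908297-97908396, minus strand): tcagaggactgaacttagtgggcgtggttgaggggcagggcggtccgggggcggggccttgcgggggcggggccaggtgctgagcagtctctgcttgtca
Nr2f1 (chr13:78198874-78198973, minus strand): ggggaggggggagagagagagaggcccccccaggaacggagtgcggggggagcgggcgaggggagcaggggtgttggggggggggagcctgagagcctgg
Nr2f2 (chr7:70366747-70366846, minus strand): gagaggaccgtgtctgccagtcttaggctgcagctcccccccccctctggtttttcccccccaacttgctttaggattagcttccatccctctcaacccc

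In Rara the CACGTG began 10 bases before the start site shown, which is 12 bases after another annotated start, and the windows of 2 further Rara starts held none. The AGGTCA of Pparg began 28 bases before one start site and 9 bases before another. The sequences of Vdr, Nr2f1 and Nr2f2 printed here held neither motif, which says only that these letters are not in the stretches shown. Over whole promoter windows of 250 bases before to 50 bases after each start, 37 of the 40 receptors had at least 1 window, 57 windows in all. CACGTG occurred in 6 of the 57 windows (10.5%), against 7.15% of 32851 promoter windows of all genes. The genes were Thrb, Rara, Nr1i3, Esr2 and Nr0b2, and 2 overlapping Rara windows held the same site. AGGTCA occurred in 11 of the 57 (19.3%) against 16.3% of all, and the direct repeat AGGTCANAGGTCA, which contains AGGTCA, in 0 of the 57 against 0.0396% of all. A match is a description of the sequence and not a measured binding site.

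The first comparison, of the pair labelled Cry/Per_KO with the pair labelled Cry/Per/Nr1d_KO, asks what NR1D1 and NR1D2 do in cells without CRY and PER. Of the 20 tested receptors, 4 were called, at an adjusted p under 0.05 with the higher group more than 75% above the lower (the fold limit). Over all 11934 genes tested the share called was 16.8%, near that of the receptors, with 7.86% called higher and 8.95% called lower. Rara and Nr4a2 were higher, and Vdr and Nr2f2 were lower, in the pair labelled Cry/Per_KO, directions that reverse if the labels, against which Arntl, Cry1 and the names of the counts go, are exchanged. The median log2 fold change was 0.14 over the 20 receptors and 0.00 over all genes tested.

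By the labels, the second comparison sets Per/Nr1d_KO cells against the pair labelled Cry/Per/Nr1d_KO. It asks what CRY1 and CRY2 do in cells without PER and NR1D. With the labels exchanged, which the values above make probable, the third comparison asks this. The second then sets CRY-retaining cells against NR1D-retaining cells. The second comparison called 5 of the 20 receptors, against a background of 20.7% (11.3% higher and 9.35% lower). Esr1, Vdr and Pparg were higher and Nr2f1 and Nr2f2 lower in Per/Nr1d_KO cells. The third comparison, of Per/Nr1d_KO cells with the pair labelled Cry/Per_KO, also called 5 of 20, against a background of 29.0% (15.2% higher and 13.8% lower). Vdr, Ppard and Pparg were higher and Nr2f1 and Nr3c1 lower in Per/Nr1d_KO cells. These 3 comparisons share libraries, so their values for a receptor are given side by side and not as independent results. The median log2 fold change over the receptors was 0.04 in the second and -0.03 in the third comparison, against 0.01 and 0.04 over all genes. In all, 9 of the 20 receptors were called in at least 1 comparison, against 36.3% of all genes tested, and 1, Vdr, in all 3, against 5.87%. Pparg is among the 9 and among the 5 called in each comparison of Per/Nr1d_KO cells, but it reached the mean of 100 only through Per/Nr1d_KO cells and so had to differ, which leaves 4 other receptors called in each of these.

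**Figure D2:**
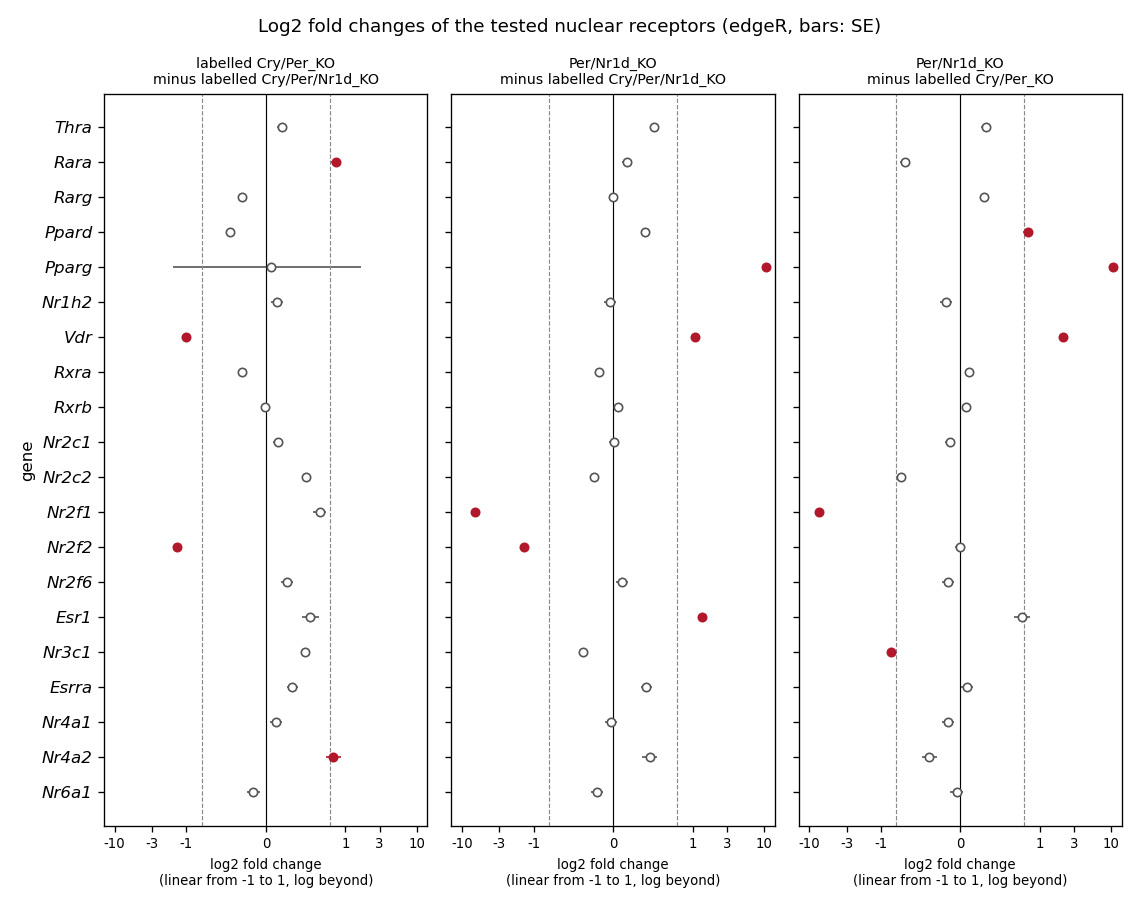
Log2 fold changes (x axis, linear from -1 to 1 and logarithmic beyond) of the 20 tested receptors (y axis) in the 3 comparisons, with bars for the standard error, dashed lines at the fold limit and filled red points for called receptors. Vdr is filled in every panel, and Pparg and Nr2f1 lie farthest from 0 in both comparisons of Per/Nr1d_KO cells.

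Among the receptors for thyroid hormone and retinoic acid, Rara (Entrez Gene 19401, chr11:98927800-98974942) was the only one called. Rara had 2683 and 2564 normalized counts in the pair labelled Cry/Per/Nr1d_KO, 4686 and 4947 in the pair labelled Cry/Per_KO, and 3128 and 2818 in Per/Nr1d_KO cells. The pair labelled Cry/Per_KO was the highest and overlapped neither other group. In the quasi-likelihood test of edgeR, with p-values adjusted by the Benjamini-Hochberg method, Rara was 1.84-fold higher in it than in the pair labelled Cry/Per/Nr1d_KO (log2 fold change 0.88 ± 0.06, SE, adjusted p = 3.1e-09). Per/Nr1d_KO cells differed from the latter by 0.18 ± 0.06 on the log2 scale (adjusted p = 0.014) and from the pair labelled Cry/Per_KO by -0.70 ± 0.06 (adjusted p = 1.9e-08), both under the fold limit.

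Rarg ranged from 9584 to 12498 normalized counts over the 6 libraries, with log2 fold changes of -0.30, 0.00 and 0.30 in the 3 comparisons. Thra, the thyroid hormone receptor alpha, ranged from 3335 to 5118, with log2 fold changes of 0.20, 0.52 and 0.32. Neither was called. Thra lies tail to tail with Nr1d1, and 5.70% of its exon bases are also in Nr1d1 exons on the opposite strand. In the same order of groups, Nr1d1 itself had normalized counts of 3158 and 3146, 9337 and 9249, and 5359 and 4838. The highest pair for Nr1d1 was therefore the pair labelled Cry/Per_KO, and for Thra it was Per/Nr1d_KO.

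The PPAR genes encode receptors for fatty acids and their derivatives, and Pparg (Entrez Gene 19016, chr6:115360879-115490404) is the regulator of fat cell formation. Pparg had 0 and 1.11 normalized counts in the pair labelled Cry/Per/Nr1d_KO, 1.11 and 0 in the pair labelled Cry/Per_KO, and 887 and 851 in Per/Nr1d_KO cells. Pparg RNA was thus near the detection limit in 4 libraries and plain in the other 2, and it reached the mean of 100 only through them. The raw counts were 1 and 1 in the first groups, summed over 2 libraries, and 1778 in Per/Nr1d_KO. The ratio of Per/Nr1d_KO to the pair labelled Cry/Per/Nr1d_KO was 1750 with a 95% counting interval from 314 to 69300, and the ratio to the pair labelled Cry/Per_KO was 1660 (from 297 to 65500). The filter on low counts alone requires such a difference, so its call is not taken as support.

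Markers of fat cells were looked at beside Pparg. Of 4 adipocyte markers, Adipoq had at most 6.87 and Plin1 at most 1.11 normalized counts in any library, and Cidec had 0 counts in all. The summed level of the 4 markers was between 175 and 193 in the pair labelled Cry/Per/Nr1d_KO, between 116 and 147 in the pair labelled Cry/Per_KO and between 1468 and 1580 in Per/Nr1d_KO, nearly all of it from Fabp4. Fabp4, a fatty acid carrier and PPAR target, had 175 and 185, 140 and 109, and 1468 and 1579 normalized counts. The part of cell composition in the Pparg result was not tested beyond these levels, and in bulk RNA fewer cells of a type and less RNA per cell cannot be told apart.

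Ppard (Entrez Gene 19015, chr17:28232754-28301469), the PPAR found in most tissues, had 4300 and 4258 normalized counts in the pair labelled Cry/Per/Nr1d_KO, 3002 and 3262 in the pair labelled Cry/Per_KO, and 5863 and 5436 in Per/Nr1d_KO cells. The 3 groups did not overlap. Per/Nr1d_KO cells were 1.80-fold above the pair labelled Cry/Per_KO (log2 fold change 0.85 ± 0.06, SE, edgeR adjusted p = 9.5e-10), which is just past the fold limit. Without replicate 1 of Per/Nr1d_KO or replicate 1 of the pair labelled Cry/Per_KO, the log2 fold change was 0.80 and 0.79, and the call was lost, as it was with the chromosome 17 median of 0.14 subtracted (0.71). The other log2 fold changes of Ppard were -0.45 and 0.40, against the pair labelled Cry/Per/Nr1d_KO. The third PPAR gene, Ppara, was not tested, and its normalized counts were 84.3 and 101, 16.7 and 19.6, and 59.6 and 67.9.

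Vdr (Entrez Gene 22337, chr15:97854427-97908296) encodes the receptor for the active form of vitamin D. Vdr had 2047 and 1900 normalized counts in the pair labelled Cry/Per/Nr1d_KO, 993 and 972 in the pair labelled Cry/Per_KO, and 4231 and 4202 in Per/Nr1d_KO cells. The groups stood apart, with Per/Nr1d_KO the highest and the pair labelled Cry/Per_KO the lowest. By edgeR's quasi-likelihood test, the log2 fold change was -1.01 ± 0.06 (SE) between the labelled pairs (2.01-fold lower, adjusted p = 1.1e-09). It was 1.09 ± 0.06 (2.13-fold higher, adjusted p = 7.8e-11) and 2.10 ± 0.06 (4.29-fold higher, adjusted p = 4.5e-14) for Per/Nr1d_KO cells. Genes of chromosome 15 had median log2 fold changes of -0.29, 0.03 and 0.35 in the 3 comparisons, and with this median taken away the first value became -0.72, within the fold limit. Cyp24a1, which degrades active vitamin D and is a strong Vdr target, had at most 6.68 normalized counts in any library.

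Nr1h2, the ubiquitous LXR that senses oxysterols, ranged from 2138 to 2690 normalized counts with log2 fold changes of 0.14, -0.04 and -0.18, and was not called. The RXR genes were also never called. Rxra ranged from 5240 to 6831, with log2 fold changes of -0.30, -0.18 and 0.12, and Rxrb from 4275 to 4781, with -0.01, 0.07 and 0.08. No change of either RXR gene was larger than 1.23-fold.

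The NR2 orphan receptors held the tested receptor with the lowest log2 fold change. Nr2f1 (Entrez Gene 13865, chr13:78188971-78198873), known as COUP-TFI, had 578 and 582 normalized counts in the pair labelled Cry/Per/Nr1d_KO, 942 and 912 in the pair labelled Cry/Per_KO, and 5.07 and 7.10 in Per/Nr1d_KO cells. Nr2f1 RNA was close to absent in Per/Nr1d_KO cells. Its level was 90.0-fold below that of the pair labelled Cry/Per/Nr1d_KO (log2 fold change -6.49 ± 0.18, SE, edgeR adjusted p = 3.8e-14) and 144-fold below that of the pair labelled Cry/Per_KO (-7.17 ± 0.17, edgeR adjusted p = 4.3e-15). Between the labelled pairs, the log2 fold change was 0.68 ± 0.08, under the fold limit, and it was 0.325 with the chromosome 13 median of 0.351 subtracted.

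Nr2f2 (Entrez Gene 11819, chr7:70351946-70366746), COUP-TFII, binds the same kind of DNA site as Nr2f1. Nr2f2 had 6754 and 7170 normalized counts in the pair labelled Cry/Per/Nr1d_KO, 2764 and 2770 in the pair labelled Cry/Per_KO, and 2939 and 2583 in Per/Nr1d_KO cells. The first pair was the high one, and the other 2 groups overlapped. By edgeR's quasi-likelihood test, Nr2f2 was 2.52-fold lower in the pair labelled Cry/Per_KO (log2 fold change -1.33 ± 0.06, SE, adjusted p = 3.8e-11) and 2.53-fold lower in Per/Nr1d_KO cells (-1.34 ± 0.06, adjusted p = 1.3e-11). Between the latter groups, the log2 fold change was -0.01 ± 0.06. Of the Nr2f2 exon bases, 7.46% lie in exons of B130024G19Rik on the opposite strand, and reads there may not be assignable to 1 of these genes.

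The other tested NR2 receptors, Nr2c1, Nr2c2 and Nr2f6, were not called. Nr2c2 (TR4) came nearest, with 4150 and 3982, 5873 and 5675, and 3369 and 3535 normalized counts, and a log2 fold change of -0.74 between Per/Nr1d_KO cells and the pair labelled Cry/Per_KO. Exons of other genes on the opposite strand cover 31.2% of the exon bases of Nr2c2 and 54.4% of those of Nr2f6, and whether the counting used strand is not given in the sources used here.

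Among the steroid receptors, Nr3c1 (Entrez Gene 14815, chr18:39410545-39519421), the glucocorticoid receptor, had 9293 and 9893 normalized counts in the pair labelled Cry/Per/Nr1d_KO, 13458 and 13468 in the pair labelled Cry/Per_KO, and 7313 and 7415 in Per/Nr1d_KO cells. The 3 groups did not overlap, and the pair labelled Cry/Per_KO was the highest. Nr3c1 was 1.83-fold lower in Per/Nr1d_KO cells than in that pair (log2 fold change -0.87 ± 0.05, SE, edgeR adjusted p = 5.5e-11). The log2 fold changes against the pair labelled Cry/Per/Nr1d_KO were 0.49 and -0.38, under the fold limit. The genes on chromosome 18 gave median log2 fold changes of 0.28, -0.21 and -0.45, in the direction of Nr3c1 each time, and with the median taken away the value of -0.87 became -0.42.

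Esr1 (Entrez Gene 13982, chr10:4611989-5005633), the estrogen receptor alpha, had 198 and 197 normalized counts in the pair labelled Cry/Per/Nr1d_KO, 308 and 274 in the pair labelled Cry/Per_KO, and 499 and 499 in Per/Nr1d_KO cells. Per/Nr1d_KO cells were highest, and were 2.53-fold above the pair labelled Cry/Per/Nr1d_KO (log2 fold change 1.34 ± 0.10, SE, edgeR adjusted p = 1.3e-08). With DESeq2 the adjusted p was 2.6e-15, short of 1e-22. The difference from the pair labelled Cry/Per_KO, 0.78 ± 0.10 on the log2 scale, was just under the fold limit, and it was 0.86 and past the limit without replicate 1 of that pair.

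The NR4A genes encode orphan receptors that are induced early after many stimuli. Nr4a2 (Entrez Gene 18227, chr2:57106830-57124003) had 558 and 619 normalized counts in the pair labelled Cry/Per/Nr1d_KO, 1046 and 1065 in the pair labelled Cry/Per_KO, and 894 and 733 in Per/Nr1d_KO cells. It was 1.80-fold higher in the pair labelled Cry/Per_KO than in the pair labelled Cry/Per/Nr1d_KO (log2 fold change 0.85 ± 0.10, SE, edgeR adjusted p = 1e-06). Without replicate 1 of the latter pair the log2 fold change was 0.77 and the call was lost, as it was with DESeq2 at an adjusted p under 1e-22 (7.8e-12). Nr4a1 ranged from 807 to 957 normalized counts and was not called.

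The 11 tested receptors that were never called were Thra, Rarg, Nr1h2, Rxra, Rxrb, Nr2c1, Nr2c2, Nr2f6, Esrra, Nr4a1 and Nr6a1. Their log2 fold changes ran from -0.74 to 0.52 over the 3 comparisons. Small differences passed the p threshold, and 9 of the 11 had an adjusted p under 0.05 in at least 1 comparison by edgeR's test. Without the fold limit, 15, 14 and 13 of the 20 receptors passed in the 3 comparisons, against 76.4%, 75.8% and 82.1% of all genes tested. Esrra, an orphan receptor that drives mitochondrial genes, ranged from 1255 to 1814 normalized counts, with log2 fold changes of 0.33, 0.42 and 0.08.

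Of the 20 receptors below the mean of 100, 3 (Hnf4a, Nr0b1 and Nr0b2) had no count in any library, and 6 others stayed under 10 normalized counts in every library. Those 6 were Nr1i2, Rxrg, Nr2e1, Pgr, Esrrg and Nr5a1. Hnf4a and Nr0b2 are receptors of the liver, and Nr5a1 and Nr0b1 of steroid-producing tissue, and hepatocyte markers were near 0 here as well, with summed levels of at most 7.80. The remaining 11 reached 10 or more in some library.

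Nr5a2, known as LRH-1, differed most between groups among these low receptors. It had 163 and 158 normalized counts in the pair labelled Cry/Per/Nr1d_KO, 0 and 0 in the pair labelled Cry/Per_KO, and 2.53 and 0.79 in Per/Nr1d_KO cells. Nr5a2 RNA was thus plain in 1 pair of libraries and at the detection limit in the other 4. Against the limit of 3 counts per library, it was at least 51.1-fold lower in the pair labelled Cry/Per_KO. The ratio of the pair labelled Cry/Per/Nr1d_KO to Per/Nr1d_KO cells was 110, with a 95% counting interval from 37.4 to 537. Esrrb was also highest in the pair labelled Cry/Per/Nr1d_KO, at a lower level, with 18.6 and 18.9, 1.11 and 4.91, and 2.53 and 2.37 normalized counts.

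**Figure D3:**
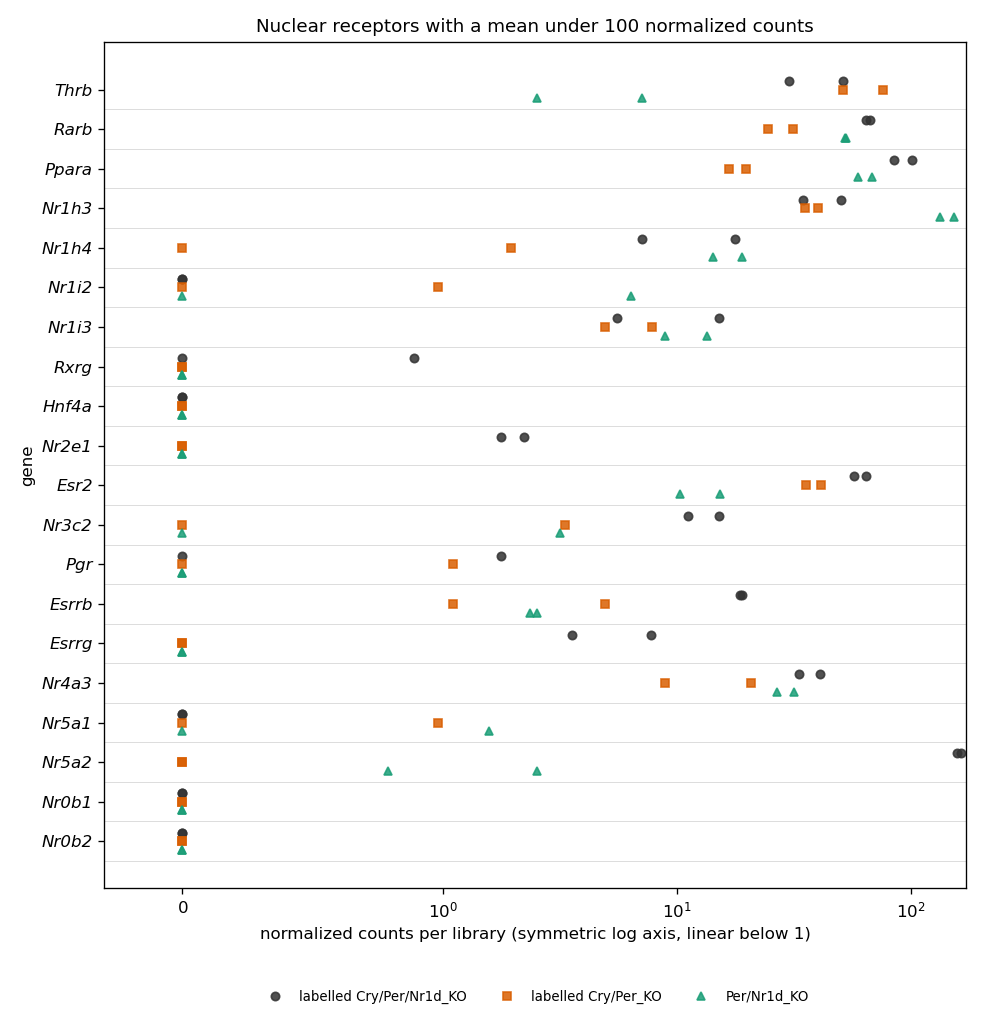
Normalized counts (x axis, symmetric log scale that is linear below 1) of the 20 nuclear receptors with a mean under 100 (y axis), with 1 point per library and 2 libraries per line. Nr5a2 is at 158 and 163 in the pair labelled Cry/Per/Nr1d_KO and at most 2.53 elsewhere, and Hnf4a, Nr0b1 and Nr0b2 are at 0 throughout.

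With the minimum mean lowered to 10, 28 receptors were tested, and 9, 9 and 12 were called in the 3 comparisons, against 22.4%, 26.5% and 33.8% of 14770 genes. In Per/Nr1d_KO cells, Thrb and Esr2 were lower and Nr1h3 was higher than in both other groups. Thrb, the thyroid hormone receptor beta, had 30.2 and 51.1, 51.2 and 75.6, and 2.53 and 7.10 normalized counts. Esr2, the estrogen receptor beta, had 56.8 and 64.4, 35.6 and 41.2, and 15.2 and 10.3. Nr1h3, the LXR of liver, fat and macrophages, had 34.6 and 49.98, 40.1 and 35.4, and 133 and 153. In each of these receptors, which were named for their calls against both other groups, the Per/Nr1d_KO pair lay outside the range of the other 4 libraries. The share of all genes with such a separation was not counted, so this describes these receptors only. The macrophage marker Cd68 was also higher in Per/Nr1d_KO cells, with 131 and 109, 141 and 161, and 276 and 258 normalized counts. The macrophage marker Csf1r was not, with 49.7 and 71.1, 73.5 and 44.2, and 45.6 and 47.3. The epithelial marker Cdh1 had 7.99 and 27.8, 11.1 and 8.84, and 100 and 110, whereas Epcam had 25.8 and 33.3, 13.4 and 8.84, and 26.6 and 18.15. The part of cell composition in these results was not tested.

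In the pair labelled Cry/Per_KO, Rarb, Ppara, Nr1h4, Nr4a3 and Nr5a2 were lower than in the pair labelled Cry/Per/Nr1d_KO in this wider fit. Nr5a2 passed the mean of 10 through the latter pair alone. Nr1h4 passed it only just, at 10.01, with 7.10 and 17.8, 0 and 1.96, and 19.0 and 14.2 normalized counts. Its calls were therefore favoured by the filter. The log2 fold change of Ppara was -2.33 ± 0.25 (SE, edgeR adjusted p = 1.5e-07). Rarb had 66.6 and 64.4, 24.5 and 31.4, and 52.0 and 52.9 normalized counts, with a log2 fold change of -1.22 ± 0.24 between the labelled pairs (edgeR adjusted p = 2e-04). Exons of other genes on the opposite strand cover 38.4% of the Rarb exon bases. For Nr1i3 this share was 74.9%, and its 4.91 to 15.1 normalized counts cannot be told apart from reads of Tomm40l without strand.

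The receptors left out of the 40 were set beside them. Nr1d1 was called in 2 comparisons (log2 fold changes 1.56, 0.69 and -0.87) and Nr1d2 in none (0.65, 0.12 and -0.53). Rora, which activates at the DNA sites where NR1D represses, had 110 and 121, 290 and 303, and 257 and 270 normalized counts, and was called higher in the first 2 comparisons (1.37 and 1.20). Rorb was below the mean of 100.

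The coregulators link these receptors to transcription. Of 13 coactivator genes tested, 1, 2 and 3 were called in the 3 comparisons, and of 10 corepressor genes 1 in each. With lists of this length, these counts are not set apart from the shares of 16.8%, 20.7% and 29.0% over all genes. Ppargc1b, the coactivator PGC-1β, had 414 and 425 normalized counts in the pair labelled Cry/Per/Nr1d_KO, 170 and 197 in the pair labelled Cry/Per_KO, and 39.3 and 20.5 in Per/Nr1d_KO cells, with log2 fold changes of -1.19, -3.90 and -2.72. Hr, a corepressor of Vdr and the thyroid hormone receptors, had 326 and 288, 93.5 and 98.2, and 49.4 and 54.4 normalized counts (log2 fold changes -1.68, -2.55 and -0.87), and it reached the mean of 100 only through the pair labelled Cry/Per/Nr1d_KO, so that its calls were favoured by the filter. Ncoa1 (SRC-1) was lower in Per/Nr1d_KO cells than in both other groups (-0.82 and -1.46), and Pprc1 was higher than in the pair labelled Cry/Per_KO (0.91). The corepressor genes Ncor1 and Hdac3 had log2 fold changes between -0.40 and 0.42 and were not called.

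The genes that make, carry or degrade the ligands set how much of each reaches a receptor. Of 27 such genes 14 were tested, and 1 was higher and 9 were lower in the pair labelled Cry/Per_KO than in the pair labelled Cry/Per/Nr1d_KO. In Per/Nr1d_KO cells 8 were higher and 4 lower than in the latter, and 9 higher and 2 lower than in the former. Over all genes tested, 7.86% were higher and 8.95% lower in the first comparison, 11.3% and 9.35% in the second and 15.2% and 13.8% in the third. The median log2 fold changes of the 14 genes were -1.23, 1.10 and 2.13, against 0.00, 0.01 and 0.04 over all genes. Genes of this kind that were tested only because of a high level in 1 line had to differ, so these counts describe the list only.

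The retinoic acid carriers Crabp1 and Crabp2 exchanged places. Crabp1 had 14856 and 13487 normalized counts in the pair labelled Cry/Per/Nr1d_KO, 5657 and 5860 in the pair labelled Cry/Per_KO, and 15.2 and 5.52 in Per/Nr1d_KO cells. Crabp2, which hands retinoic acid to its receptors, had 102 and 97.7, 34.5 and 28.5, and 4168 and 4135. Crabp1 was therefore almost lost in Per/Nr1d_KO cells and Crabp2 was high in them alone. The log2 fold changes in Per/Nr1d_KO cells were -10.56 and -9.26 for Crabp1, and 5.37 and 7.04 for Crabp2, which was tested only because of its level in these cells.

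Aldh1a3, which makes retinoic acid, was high only in the pair labelled Cry/Per/Nr1d_KO, at 370 and 336 normalized counts against 25.6 and 42.2 in the pair labelled Cry/Per_KO and 27.9 and 29.2 in Per/Nr1d_KO cells. Dhrs3, which turns retinal back into retinol and is itself induced by retinoic acid, had 482 and 476, 93.5 and 88.4, and 1115 and 1056. Cyp26b1, which degrades retinoic acid, had 982 and 922, 152 and 138, and 456 and 440. Both of the latter genes were lowest in the pair labelled Cry/Per_KO.

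The oxysterol enzymes Ch25h and Cyp7b1 were abundant in Per/Nr1d_KO cells only. Ch25h, which makes 25-hydroxycholesterol, had 6.21 and 7.77, 35.6 and 38.3, and 3154 and 2948 normalized counts. Cyp7b1, which hydroxylates oxysterols further, had 3.55 and 6.66, 1.11 and 0, and 3648 and 3817. Both were near the detection limit or low in 4 libraries and abundant in the other 2. The ratio of Per/Nr1d_KO cells to the pair labelled Cry/Per/Nr1d_KO was 438 for Ch25h (95% counting interval from 261 to 802) and 760 for Cyp7b1 (from 413 to 1590).

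Dio3, the deiodinase that inactivates thyroid hormone, followed the order of Vdr. It had 358 and 309 normalized counts in the pair labelled Cry/Per/Nr1d_KO, 0 and 0.98 in the pair labelled Cry/Per_KO, and 835 and 806 in Per/Nr1d_KO cells. The ratio of the pair labelled Cry/Per/Nr1d_KO to the pair labelled Cry/Per_KO was 644 (95% counting interval from 115 to 25500), since the latter held 1 count in all.

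**Figure D4:**
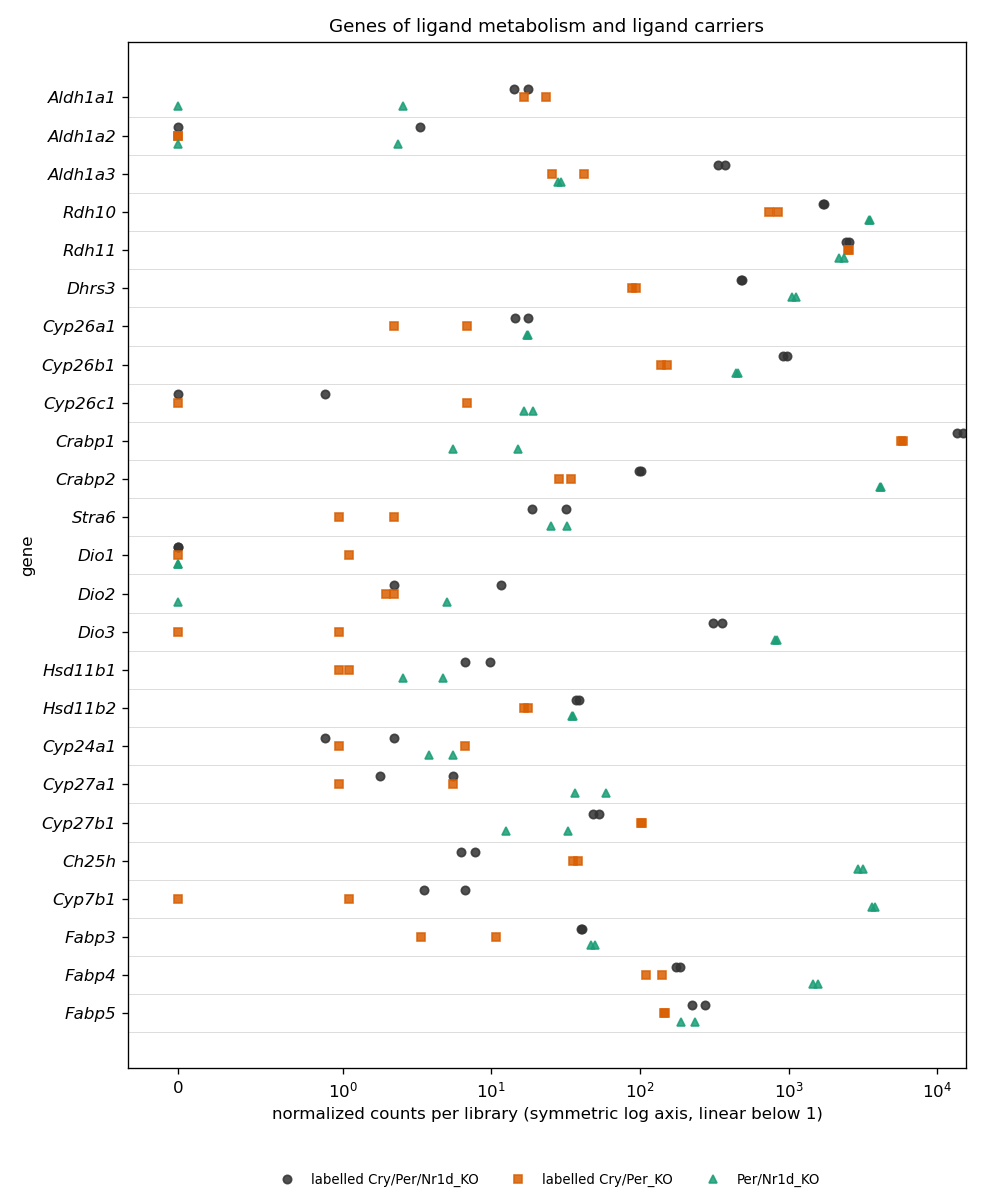
Normalized counts (x axis, symmetric log scale that is linear below 1) of 25 of the 27 genes of ligand metabolism and ligand carriers (y axis), with 1 point per library and 2 libraries per line. Crabp2, Ch25h and Cyp7b1 are at 2948 or more in Per/Nr1d_KO cells and at most 102 elsewhere, and Crabp1 is at 15.2 or less there.

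Target genes of the receptors were called in both directions. Over all genes tested the shares called were 16.8%, 20.7% and 29.0%, and some targets (such as Angptl4 and Smpdl3a) were tested only because of a high level in Per/Nr1d_KO cells and had to differ, so the counts below describe the lists only. Of 6 tested retinoic acid receptor targets, several of which are also among the ligand genes, 1 was higher and 4 were lower in the pair labelled Cry/Per_KO than in the pair labelled Cry/Per/Nr1d_KO. In Per/Nr1d_KO cells 3 were higher and 3 lower than in the latter, and 3 higher and 2 lower than in the former. Tgm2, a transglutaminase, had normalized counts of 4764 and 4467, 3687 and 3629, and 1124 and 1081.

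Of 7 tested PPAR targets, 1 was called between the labelled pairs, and in Per/Nr1d_KO cells 3 were higher and 1 lower than in the pair labelled Cry/Per/Nr1d_KO, and 4 higher and 1 lower than in the pair labelled Cry/Per_KO. Angptl4, an inhibitor of lipoprotein lipase, had 11.5 and 12.2, 34.5 and 38.3, and 363 and 333 normalized counts, the same high pair as Pparg and Fabp4. Pdk4, a kinase that turns off pyruvate dehydrogenase, had 1147 and 1095, 1825 and 1715, and 175 and 185, and was lowest in the pair where Pparg was highest.

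Of 7 tested LXR targets, Scd1, a fatty acid desaturase, was lower in both other groups than in the pair labelled Cry/Per/Nr1d_KO (log2 fold changes -1.02 and -0.98). Scd1 had 18553 and 19263, 9553 and 9127, and 9736 and 9453 normalized counts. Smpdl3a, a secreted phosphodiesterase, had 50.6 and 52.2, 64.5 and 48.1, and 733 and 664, and was called higher in Per/Nr1d_KO cells in both comparisons. The cholesterol exporter Abca1 had log2 fold changes of -0.11, 0.59 and 0.71 and was not called.

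Of 9 tested glucocorticoid receptor targets, 1 was called between the labelled pairs, and in Per/Nr1d_KO cells 3 were higher and 3 lower in each of the 2 comparisons. Cebpd and Cdkn1a were higher, and Fkbp5, Tsc22d3 and Mt1 lower, in both, whereas Mt2 was called higher in the second alone and Sgk1 in the third alone. Tsc22d3 (GILZ) had 3795 and 3577, 4525 and 4820, and 1283 and 1231 normalized counts. Fkbp5, a chaperone partner of the receptor, had 9155 and 8910, 7384 and 7640, and 3406 and 3507. Both were lowest in Per/Nr1d_KO cells, as was the metallothionein gene Mt1 (6508 and 6823, 4414 and 4331, and 2316 and 2066). Its neighbour Mt2 was highest there instead, at 6639 and 6304 against 2895 and 2861 in the pair labelled Cry/Per/Nr1d_KO and 3842 and 4061 in the pair labelled Cry/Per_KO (log2 fold changes 1.17 and 0.71). The kinase gene Sgk1 was also highest in these cells, with 24484 and 24309, 17360 and 18346, and 35652 and 34171 (0.52 and 0.97). In the same cells Cebpd was highest, at 6104 and 5246 against 898 and 1008 in the pair labelled Cry/Per/Nr1d_KO and 1799 and 2114 in the pair labelled Cry/Per_KO. Cdkn1a, which is also a target of p53, had 5348 and 5166, 5997 and 6490, and 24464 and 24154.

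**Figure D5:**
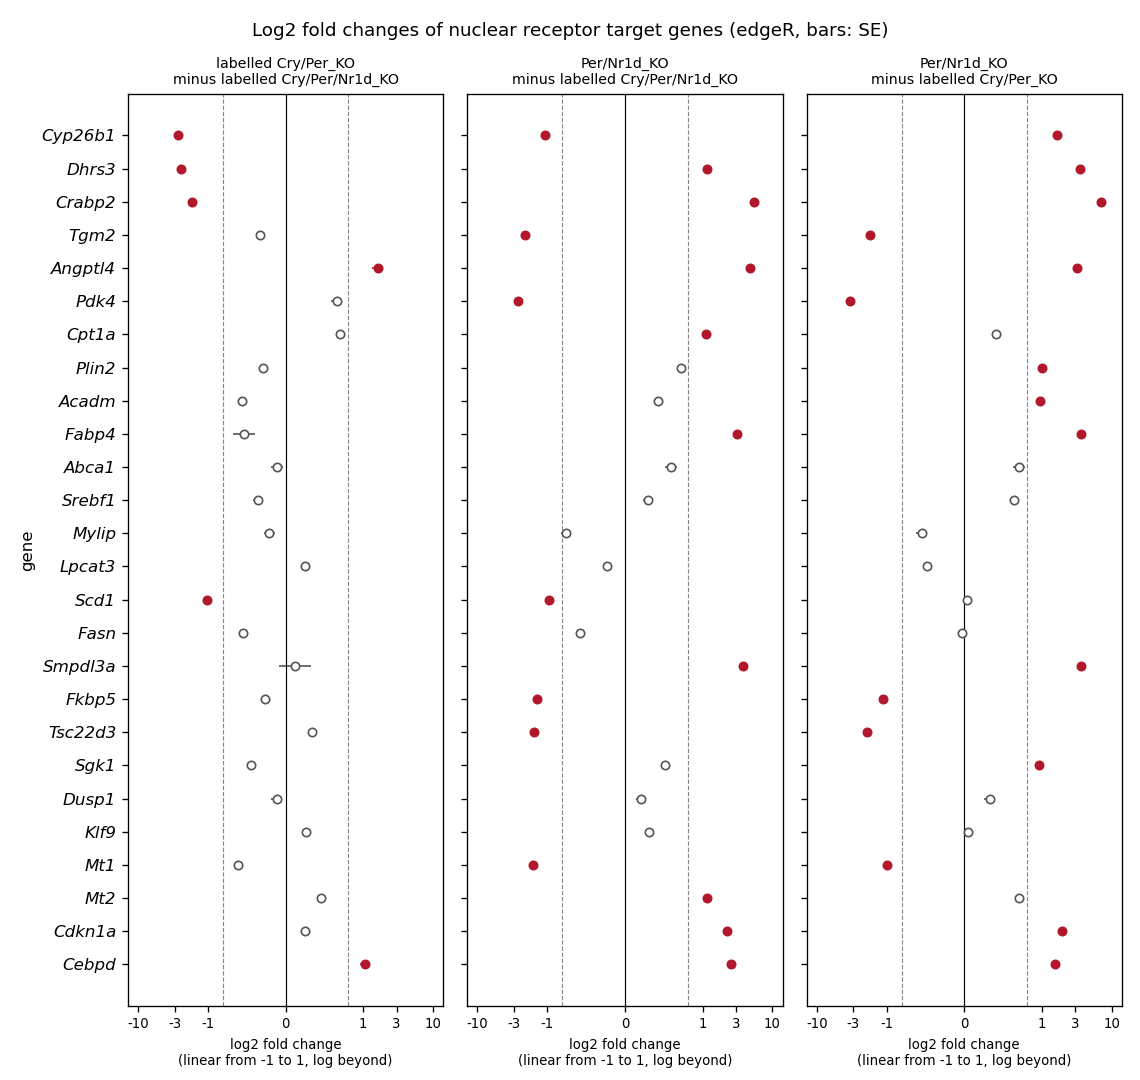
Log2 fold changes (x axis, linear from -1 to 1 and logarithmic beyond) of tested target genes of the retinoic acid, PPAR, LXR and glucocorticoid receptors (y axis, in this order, each gene once) in the 3 comparisons, with bars for the standard error, dashed lines at the fold limit and filled red points for called genes. Filled points lie on both sides of 0 in the panels for Per/Nr1d_KO cells, with Crabp2 at 5.37 and 7.04 and Tgm2 at -2.07 and -1.73.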

How the data were processed

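Poly-A RNA of 3 MEF lines was sequenced from stranded libraries as single-end reads of 50 bases. Per the labels and the methods, the authors used STAR for mapping (mm10) and featureCounts for counting, and the deposited values are raw counts per Entrez Gene ID. The strand setting is not given in the sources used here. The DESeq2 tables that the authors also deposited, with fold changes and p-values of their own comparisons, were not used.

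Symbols and promoters came from RefSeq (GRCm38.p6, the assembly of mm10; 25275 of 27179 IDs matched), exon lengths and overlaps from GENCODE vM21. Counts were scaled by TMM and are given at the mean effective library size, and genes with a mean of at least 100 were tested with edgeR 4.0.16 (R 4.3.3, quasi-likelihood test, 6 libraries, 3 groups, no block, Benjamini-Hochberg adjustment over 11934 genes). A gene was called at an adjusted p under 0.05 and over 1.75-fold. The SE is the log2 fold change divided by the square root of F. The common biological coefficient of variation was 0.0393. The script was tested on simulated data. Between the libraries of a line, chi-square per degree of freedom was 7.01 to 14.0, so none was a repeat of another.

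The members and lists were chosen with earlier results of these data known. Named were all receptors called, up to 4 others per role, and per list and comparison the called genes that rose or fell most (2 each way), with some further genes chosen after their values were seen. Alternatives were DESeq2 1.42.0 (also at 1e-22), median-of-ratios factors, other filters, no fold limit, the compared groups alone, a replicate block, each library left out, and chromosome medians subtracted. Some genes of the lists count in their totals but are not reported here by name.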

Additional observations from a re-analysis of the deposited data

How the results depend on the processing

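The calls of 4, 5 and 5 receptors were the same in number with DESeq2 at an adjusted p under 0.05, with median-of-ratios factors and with the compared groups alone. DESeq2 at an adjusted p under 1e-22, the p criterion of the study, called 3, 3 and 4, against 9.24%, 14.8% and 21.2% of all genes; it ended the calls of Nr4a2 in the first comparison (adjusted p = 7.8e-12, log2 fold change 0.85) and Esr1 in the second (2.6e-15, 1.33), and that of Pparg in both comparisons of Per/Nr1d_KO cells (log2 fold changes 10.77 and 10.69), where the filter fixed a difference and the test says nothing. A minimum mean of 10 called 9, 9 and 12 of 28 receptors (22.4%, 26.5% and 33.8% of all genes), no filter 12, 12 and 12 of 37 (18.7%, 22.5% and 27.4% of 20375 genes), and no limit on the fold 15, 14 and 13 (76.4%, 75.8% and 82.1%); these settings test more genes or drop a criterion by construction. With chromosome medians subtracted the counts were 3, 5 and 3 (13.7%, 19.5% and 23.2% of all genes), without Vdr in the first comparison and without Ppard and Nr3c1 in the third. Leaving out each library in turn gave 3 to 4, 5 to 5 and 4 to 5 calls. The log2 fold change of Pparg between the labelled pairs, 0.06 from 1 count on each side, ran from -2.33 (without Cry/Per_KO replicate 1) to 2.39 (without Cry/Per/Nr1d_KO replicate 2) when a library was left out, was -0.93 without Cry/Per/Nr1d_KO replicate 1, and became -0.28 with the chromosome median subtracted. That of Nr2f2 in the third comparison, -0.01, became 0.088 without Per/Nr1d_KO replicate 2. The cause was not tested. Depth limits the receptors with few counts.

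The replicate numbers are not stated to mark a shared day or batch. The correlation of the differences between replicates 1 and 2 was -0.21, -0.10 and -0.02 for the 3 pairs of lines, so no pairing was assumed. With the number as a replicate block 4, 5 and 5 receptors were called, and with the numbers of the pair labelled Cry/Per/Nr1d_KO crossed, an alternative chosen after seeing the data, also 4, 5 and 5.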
